A study of Homo sapiens with 12 samples.

Results

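Crypt base stem cell genes were examined as a set of 10 genes used to mark the stem cells at the bottom of intestinal crypts: LGR5, LGR4, ASCL2, OLFM4, SMOC1, SMOC2, LRIG1, RGMB, CDCA7 and MSI1. They are a named list with no rule on measured values, drawn up with earlier results of these data known. Each symbol was matched to its Ensembl identifier in a table of read counts, and all 10 were found among the 60671 genes of the table. The filter on low counts kept 9 of them for testing and left out MSI1. The cells were LS180, an established line from a human colorectal cancer, grown in medium with serum. Its derivatives held a doxycycline-inducible construct for V5-tagged wild-type SOX9, for M303, a V5-tagged mutant that the series design describes as truncated SOX9, or for GFP as the control. Each line was analysed after 24 h in doxycycline at 0.5 µg/ml and without doxycycline. The 6 groups were thus the SOX9 line with and without doxycycline, the M303 line with and without it, and the GFP line with and without it, with 2 libraries in each. Each construct sat in its own line, so a construct cannot be told apart from the cells that held it. Whether a line was a clone or a pool is not given in the sources used here.

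WNT signals keep intestinal stem cells in division. Secreted R-spondins bind the receptors LGR4 and LGR5 and thereby draw the ubiquitin ligases RNF43 and ZNRF3 away from the cell surface, which leaves more WNT receptors in place. In the mouse, Lgr5 marks the columnar cells of the crypt base, and Ascl2, a transcription factor gene switched on by WNT, maintains their programme. SOX9 is itself a WNT target and is made in the lower crypt, in stem cells, progenitors and Paneth cells.

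Libraries held 31012775 to 48529770 counts. The SOX9 gene itself, measured as a check of the labels, had 711 and 760 CPM in the SOX9 line with doxycycline, against 357 and 381 CPM without. It had 818 and 867 CPM in the M303 line with doxycycline, against 399 and 367 CPM without, and 405 and 371 CPM in the GFP line with doxycycline, against 399 and 392 CPM without. CPM stands for the count of a gene over the scaled total of its library, and the SOX9 counts pool endogenous and construct transcripts. All 7 epithelial markers of a list stood at a mean of at least 1 CPM, fibroblast markers summed to at most 2.92 CPM and endothelial markers to at most 0.460 CPM in any library. Of the crypt base genes, 9 of 10 stood at a mean of at least 1 CPM, and MSI1 did not.

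Induction of wild-type SOX9 raised 4 crypt base genes, SMOC1, SMOC2, OLFM4 and LRIG1, by 1.504-fold to 3.10-fold over the uninduced SOX9 line. The response of LRIG1 did not pass the test against the response of the GFP line or of the M303 line. The defining marker LGR5 and the transcription factor gene ASCL2 were higher by 1.19-fold and 1.16-fold in the fit, which did not pass the test, and LGR4, RGMB and CDCA7 did not pass it either. A gene was called at an adjusted p under 0.05 from edgeR's quasi-likelihood test, with Benjamini-Hochberg adjustment over all 18219 genes tested. Of the 9 genes tested, 4 were called higher and 0 lower, where 1.81% of all genes tested were called higher and 1.16% lower in this comparison. The fitted change was above 0 for 8 of the 9, with a median log2 fold change of 0.246, beside 0.0059 over all genes tested. Both libraries with doxycycline lay above both without for 8 of the 9 genes, a pattern shown by 23.2% of all genes tested. The summed level of all 10 genes was 969 and 984 CPM in the 2 libraries of the SOX9 line with doxycycline, against 758 and 763 CPM without. In RNA from whole cultures, more cells that express a gene and more RNA per cell cannot be told apart. Summed markers of other intestinal cell types differed between the same libraries. A list of 8 Paneth cell markers, with REG3A at 0, summed to 838.9 to 849.6 CPM with doxycycline, against 150.3 to 173.1 CPM without. LYZ, the lysozyme gene, carried most of that difference, at a mean of 584 CPM with doxycycline, against 51.8 CPM without. PLA2G2A (201 against 105 CPM), DEFA5 (35.6 against 0.649 CPM) and DEFA6 (21.1 against 1.52 CPM) were called higher too, PRSS2 had 2.31 against 2.51 CPM and was not called, and ITLN2 and MMP7 stood at means of at most 0.272 CPM. A list of 10 goblet cell markers summed to 1034 to 1065 CPM with doxycycline, against 2031 to 2047 CPM without. Of 5 blood and immune cell markers, with CD3E at 0, LYZ alone reached a mean of 1 CPM, and it is on the Paneth list too. The part of these shifts in the results for crypt base genes was not tested. The labels do not say whether duplicates were grown apart, so each p-value captures only how far these libraries scatter, and that scatter may be technical.

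**Figure D1:**
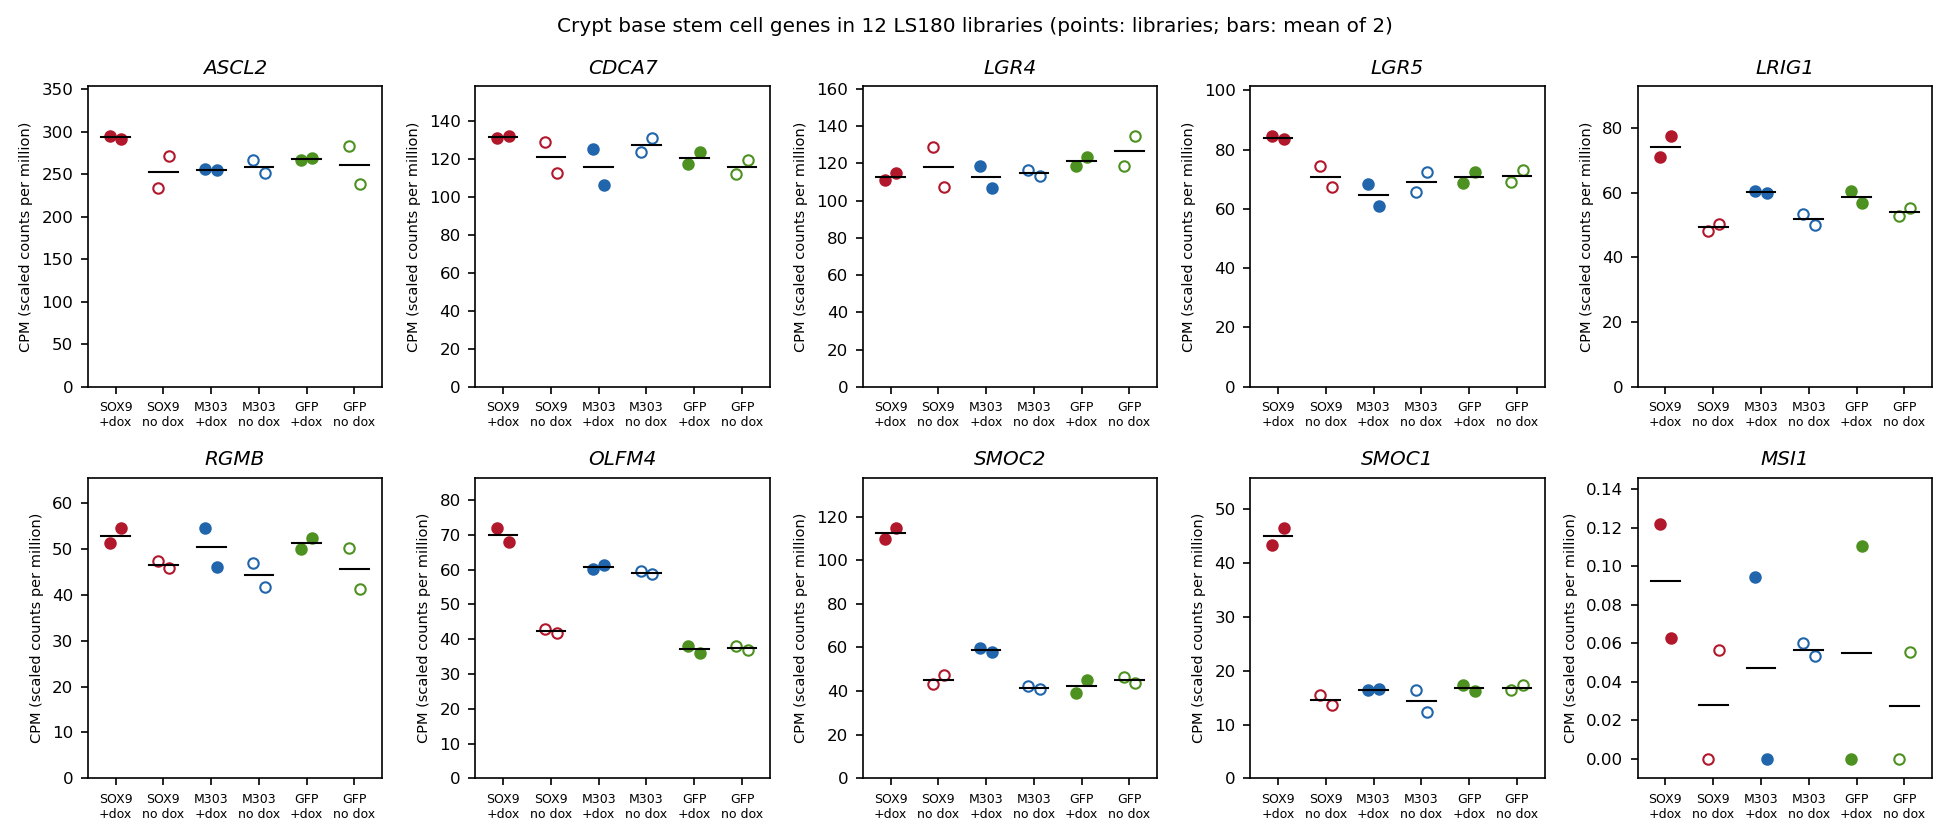
Level of each of the 10 genes in CPM (vertical axes, from 0 except for MSI1) in the 6 groups (horizontal axes), with a point for each library, filled with doxycycline and open without, and a bar at the mean of 2. SMOC1, SMOC2, OLFM4 and LRIG1 stand highest in the SOX9 line with doxycycline, OLFM4 is high in the M303 line with and without doxycycline, and MSI1 stays at or below 0.122 CPM.

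The sequences upstream of the 4 genes that rose are shown because each was called higher when a transcription factor was induced. Whether SOX9 acts on any of them directly was not tested. RefSeq's table for build GRCh38.p14 held a promoter window for 7 of the 10 genes, from which the 250 bases before the first listed start were read. Printed is the stretch of that window that lies outside the exons of the gene in the counted annotation, 5′ to 3′ on the strand of the gene. OLFM4 is shown at chr13:53028563-53028812 on the plus strand, SMOC1 at chr14:69879166-69879415 on the plus strand, SMOC2 at chr6:168440934-168441150 on the plus strand and LRIG1 at chr3:66501264-66501371 on the minus strand. The SMOC1 start used by RefSeq lies inside the gene as counted, which starts at 69854131. Capitals mark the motif ACAAAG.
OLFM4: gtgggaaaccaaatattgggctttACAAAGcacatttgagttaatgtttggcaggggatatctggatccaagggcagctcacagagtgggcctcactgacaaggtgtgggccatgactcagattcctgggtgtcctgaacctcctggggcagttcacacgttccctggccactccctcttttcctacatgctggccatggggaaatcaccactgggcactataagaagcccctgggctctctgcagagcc
SMOC1: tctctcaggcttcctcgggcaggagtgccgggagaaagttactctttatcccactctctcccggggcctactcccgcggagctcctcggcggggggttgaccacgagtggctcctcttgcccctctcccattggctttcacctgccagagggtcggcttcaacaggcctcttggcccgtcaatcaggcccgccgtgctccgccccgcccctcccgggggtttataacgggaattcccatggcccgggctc
SMOC2: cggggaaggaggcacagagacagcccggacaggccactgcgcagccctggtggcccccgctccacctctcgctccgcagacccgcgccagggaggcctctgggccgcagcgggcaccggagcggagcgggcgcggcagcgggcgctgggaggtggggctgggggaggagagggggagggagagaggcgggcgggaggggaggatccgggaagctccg
LRIG1: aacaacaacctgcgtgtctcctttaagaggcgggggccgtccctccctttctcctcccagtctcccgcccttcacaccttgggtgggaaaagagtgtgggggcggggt
The windows were searched on both strands for ACAAT, a core bound by SOX factors, for ACAAAG, a SOX variant whose letters overlap those of TCF/LEF sites, and for TCAAAG, a TCF/LEF core. ACAAAG stood in the OLFM4 window, 226 bases before the start, and in 13.7% of 27305 promoters of the same length. TCAAAG stood in the CDCA7 window, 202 bases before the start on one strand and 169 bases before it on the other, and in 11.4% of all promoters. ACAAT was in none of the 7 windows and in 25.2% of all promoters. The windows of SMOC1, SMOC2, LRIG1, LGR4 and RGMB held none of the 3 motifs, which says only that these letters are not in those bases. LRIG1 had 4 listed windows and RGMB 3, and only the first of each was searched. Of the 250 bases searched, 142 for LRIG1, 52 for CDCA7 and 33 for SMOC2 lay in exons of the gene as counted. G and C made up 54% of the OLFM4 window, 65.6% of that of SMOC1, 75.2% of that of SMOC2 and 66.8% of that of LRIG1, beside a median of 58% over all promoters.

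Among the secreted proteins of the set, SMOC1 and SMOC2 gave the highest fold changes. SMOC1 (ENSG00000198732, chromosome 14, 69854131 to 70032366, plus strand, GRCh38) encodes a calcium-binding protein of the matrix that can antagonise BMP signals in the frog. SMOC1 had 43.4 and 46.6 CPM in the SOX9 line with doxycycline, against 15.5 and 13.6 CPM without. It had 16.4 and 16.5 CPM in the M303 line with doxycycline, against 16.5 and 12.4 CPM without, and 17.4 and 16.2 CPM in the GFP line with doxycycline, against 16.4 and 17.3 CPM without. Both libraries with induced SOX9 stood apart from the other 10, of which the highest was at 17.4 CPM. The log2 fold change with SOX9 was 1.63 (SE 0.133, 95% CI 1.35 to 1.91, edgeR adjusted p = 1.3e-07), a 3.10-fold rise.

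SMOC2 (ENSG00000112562, chromosome 6, 168441151 to 168673445, plus strand) is the paralog of SMOC1 and, in the mouse, a gene of the Lgr5 stem cell signature. SMOC2 had 109.7 and 115 CPM in the SOX9 line with doxycycline, against 43.3 and 47.2 CPM without. It had 59.9 and 57.9 CPM in the M303 line with doxycycline, against 42.1 and 41.0 CPM without. The GFP line had 39.2 and 45.1 CPM of it with doxycycline, against 46.3 and 43.5 CPM without. Induced SOX9 was highest and induced M303 came next, with no overlap between either of them and any other group. With SOX9 the log2 fold change was 1.31 (SE 0.0906, 95% CI 1.12 to 1.5, edgeR adjusted p = 1.45e-08), a 2.48-fold rise. It ranked 6 among all genes tested in that comparison by p.

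OLFM4 (ENSG00000102837, chromosome 13, 53028813 to 53052057, plus strand) encodes a secreted glycoprotein that marks crypt base cells of the human intestine. OLFM4 had 72.1 and 68.0 CPM in the SOX9 line with doxycycline, against 42.9 and 41.7 CPM without. It had 60.1 and 61.5 CPM in the M303 line with doxycycline, against 59.6 and 58.6 CPM without. In the GFP line it had 38.1 and 36.0 CPM with doxycycline, against 38.2 and 36.8 CPM without. Without doxycycline the 2 libraries of the M303 line were the high ones, above both other lines. With SOX9 the log2 fold change was 0.73 (SE 0.0848, 95% CI 0.552 to 0.906, edgeR adjusted p = 1.18e-05), a 1.66-fold rise over the uninduced SOX9 line.

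LRIG1 (ENSG00000144749, chromosome 3, 66378797 to 66501263, minus strand) encodes a membrane protein that promotes the breakdown of ERBB receptors and, in the mouse, marks crypt stem and progenitor cells. LRIG1 had 70.9 and 77.5 CPM in the SOX9 line with doxycycline, against 48.3 and 50.4 CPM without. It had 60.6 and 60.0 CPM in the M303 line with doxycycline, against 53.5 and 50.01 CPM without, and 60.6 and 56.9 CPM in the GFP line with doxycycline, against 52.8 and 55.2 CPM without. In every line both libraries with doxycycline lay above both without, the GFP control included. The log2 fold change was 0.59 with SOX9 (SE 0.0856, 95% CI 0.41 to 0.767, edgeR adjusted p = 0.00019), a 1.504-fold rise. It was 0.22 with M303 (95% CI 0.0421 to 0.40) and 0.12 with GFP (95% CI -0.0574 to 0.301), neither of which passed the test. LRIG1 shares 907 exon bases with SLC25A26 on the opposite strand, and reads were counted without strand. SLC25A26 had at most 996 counts in a library, against at least 1607 for LRIG1, and a log2 fold change of -0.02 with SOX9 (adjusted p = 0.979).

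Neither R-spondin receptor passed the test with SOX9. LGR5 (ENSG00000139292, chromosome 12, 71439798 to 71586310, plus strand) had 84.5 and 83.6 CPM in the SOX9 line with doxycycline, against 74.4 and 67.3 CPM without. LGR5 had 68.5 and 61.1 CPM in the M303 line with doxycycline, against 65.6 and 72.4 CPM without, and 68.7 and 72.4 CPM in the GFP line with doxycycline, against 69.0 and 73.2 CPM without. Both libraries with induced SOX9 lay above the other 10, whose highest was 74.4 CPM. The log2 fold change with SOX9 was 0.25 (SE 0.0878, 95% CI 0.0627 to 0.429, edgeR adjusted p = 0.173), so the difference did not pass the test. LGR4 (ENSG00000205213, chromosome 11, 27365961 to 27472790, minus strand), the more widely expressed receptor of the pair, had 111 and 115 CPM in the SOX9 line with doxycycline, against 129 and 107 CPM without. These groups overlapped, with a log2 fold change of -0.06 (95% CI -0.254 to 0.125, edgeR adjusted p = 0.845). In the other lines LGR4 lay between 106.9 and 134.7 CPM.

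ASCL2 (ENSG00000183734, chromosome 11, 2268495 to 2270952, minus strand), the transcription factor of the set, had 295 and 292 CPM in the SOX9 line with doxycycline, against 234 and 272 CPM without. ASCL2 had 256 and 255 CPM in the M303 line with doxycycline, against 266 and 251 CPM without, and 267 and 269 CPM in the GFP line with doxycycline, against 284 and 239 CPM without. Both induced SOX9 libraries were above the other 10, but the duplicates of the uninduced SOX9 and GFP lines lay far apart. The log2 fold change with SOX9 was 0.22 (95% CI 0.0399 to 0.393, edgeR adjusted p = 0.228).

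The remaining genes act in BMP signalling, chromatin and RNA binding. RGMB (ENSG00000174136, chromosome 5, 98768650 to 98798643, plus strand), a co-receptor for BMP ligands, had 51.3 and 54.5 CPM in the SOX9 line with doxycycline, against 47.3 and 45.8 CPM without, a log2 fold change of 0.18 (95% CI -0.0387 to 0.407, edgeR adjusted p = 0.487). The log2 fold change was also above 0 in the other lines, at 0.19 with M303 (95% CI -0.0376 to 0.409) and 0.17 with GFP (95% CI -0.0582 to 0.389). RGMB shares 363 exon bases with RGMB-AS1 on the opposite strand, which had at most 886 counts, and 2682 with an unnamed gene that had at most 5. CDCA7 (ENSG00000144354, chromosome 2, 173354820 to 173368997, plus strand), which recruits the chromatin remodeller HELLS, had 131 and 132 CPM in the SOX9 line with doxycycline, against 129 and 113 CPM without. The log2 fold change of CDCA7 was 0.12 (95% CI -0.0618 to 0.304, edgeR adjusted p = 0.622), and in the other lines CDCA7 lay between 106.1 and 130.7 CPM. MSI1 (ENSG00000135097, chromosome 12, 120341330 to 120369164, minus strand), an RNA-binding protein of neural and intestinal progenitors, had 6 and 2 counts in the SOX9 line with doxycycline, against 0 and 2 without. Elsewhere MSI1 had 0 to 4 counts. A floor of 3 counts was 0.0618 to 0.0967 CPM in these libraries. Each mate of a read pair was counted, so a count of 0 allows a higher level than this floor. No change of MSI1 could be measured and no fold is given.

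With M303 induction edgeR called none of the 9 genes, where 0.00549% of all genes tested were called, which is the SOX9 gene alone. An unadjusted p under 0.05 was met by 2 of the 9, SMOC2 and LRIG1, and by 662 of the 18219 genes tested. DESeq2 called 1 of the 9, SMOC2, and 3 genes in all. SMOC2 had a log2 fold change of 0.50 with M303 (SE 0.0907, 95% CI 0.315 to 0.693, edgeR adjusted p = 0.177) and ranked 2 of all genes by p, after SOX9. It passed the test without the low-count filter (adjusted p = 0.00278), with DESeq2 (adjusted p = 0.00423), and without replicate 1 (adjusted p = 0.0472) or replicate 2 (adjusted p = 0.0456) of the GFP line with doxycycline. Those were 4 of 19 alternative settings, and the other 15 left SMOC2 uncalled. Its log2 fold change with M303 ran from 0.48 to 0.53 over them all. The median over the 9 genes was 0.040 on the log2 scale with M303, beside 0.00075 over all genes tested. OLFM4, which was high in this line without doxycycline, had a log2 fold change of 0.04 with M303 (95% CI -0.135 to 0.216), and SMOC1 had 0.19 (95% CI -0.0895 to 0.474).

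In the GFP line doxycycline gave no call among the 9 genes by edgeR or DESeq2, and none at an unadjusted p under 0.05, where 0% of all genes tested were called by edgeR. The fitted log2 fold changes ran from -0.09 for SMOC2 to 0.17 for RGMB, with a median of -0.0064, beside 0.00049 over all genes tested. LRIG1 alone had both libraries with doxycycline above both without, where 13.5% of all genes tested did.

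**Figure D2:**
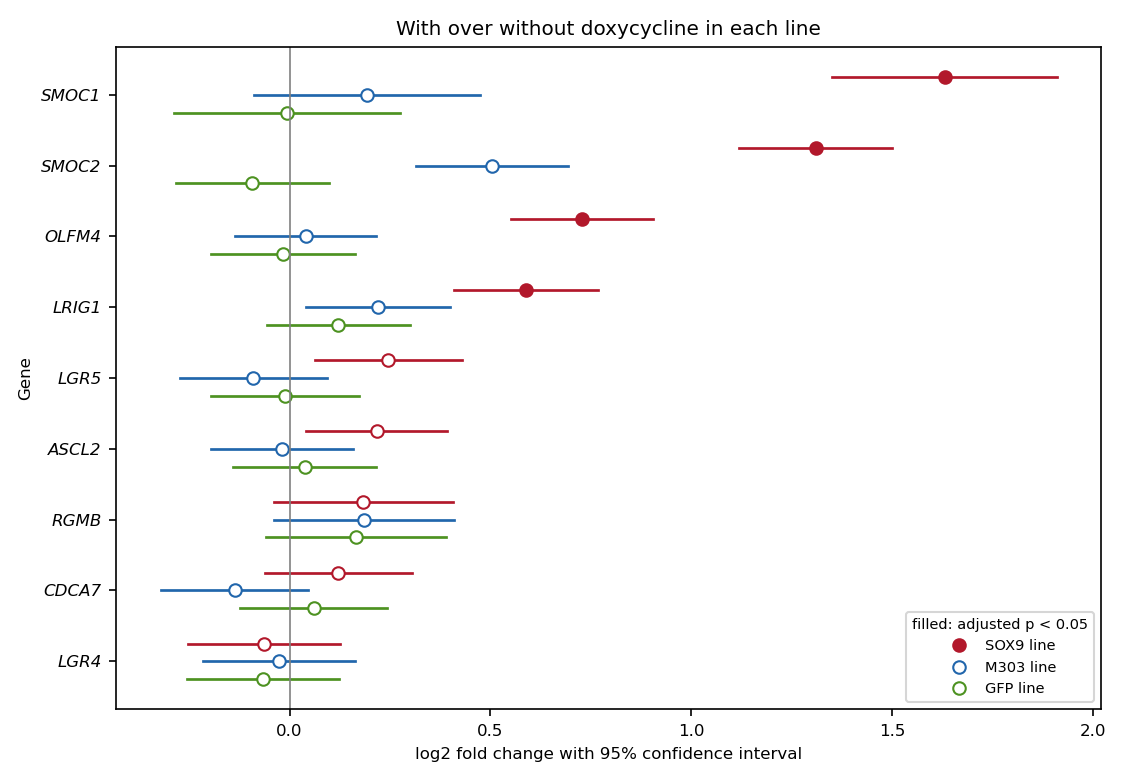
Log2 fold change with over without doxycycline (horizontal axis) with its 95% confidence interval (lines) for the 9 genes tested (vertical axis), in the SOX9, M303 and GFP lines, with filled points where the adjusted p was under 0.05. The SOX9 points of SMOC1 at 1.63, SMOC2 at 1.31, OLFM4 at 0.73 and LRIG1 at 0.59 are filled, and no point of M303 or GFP is.

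The responses to SOX9 and to M303 were set against each other as interaction terms. SMOC1, SMOC2 and OLFM4 responded more to SOX9 than to M303, 3 of the 9 genes, where 0.357% of all genes tested were called higher and the median over the 9 was 0.34, beside -0.0003 over all genes tested. The log2 difference of SMOC1 was 1.44 (SE 0.189, 95% CI 1.04 to 1.83, edgeR adjusted p = 0.000342). That of SMOC2 was 0.81 (SE 0.127, 95% CI 0.541 to 1.07, adjusted p = 0.00202). OLFM4 differed by 0.69 (SE 0.119, 95% CI 0.44 to 0.938, adjusted p = 0.00424). Without replicate 1 of the SOX9 line with doxycycline, OLFM4 was no longer called (0.64, adjusted p = 0.0601). LRIG1 differed by 0.37 (95% CI 0.115 to 0.62, adjusted p = 0.382), LGR5 by 0.34 (95% CI 0.0764 to 0.596, adjusted p = 0.514) and ASCL2 by 0.24 (95% CI -0.0139 to 0.486, adjusted p = 0.744), and none of them passed the test. RGMB differed by -0.0018 (95% CI -0.317 to 0.313).

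Against GFP induction, which shares the SOX9 libraries with the comparison above, SMOC1 differed by 1.64 (95% CI 1.24 to 2.03, edgeR adjusted p = 4.39e-05), SMOC2 by 1.40 (95% CI 1.14 to 1.67, adjusted p = 2.52e-06) and OLFM4 by 0.74 (95% CI 0.493 to 0.997, adjusted p = 0.0016). These were 3 of the 9 genes, where 0.631% of all genes tested were called higher. LRIG1 differed by 0.47 (95% CI 0.214 to 0.72, adjusted p = 0.0895), which DESeq2 called (adjusted p = 0.0385). Between M303 and GFP induction edgeR and DESeq2 called none of the 9, where 0.00549% of all genes were called by edgeR. An unadjusted p under 0.05 was met by 717 of the 18219 genes tested and by 1 of the 9. That gene was SMOC2, with a log2 difference of 0.60 (95% CI 0.328 to 0.865, adjusted p = 0.992), which ranked 2 of all genes by p.

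**Figure D3:**
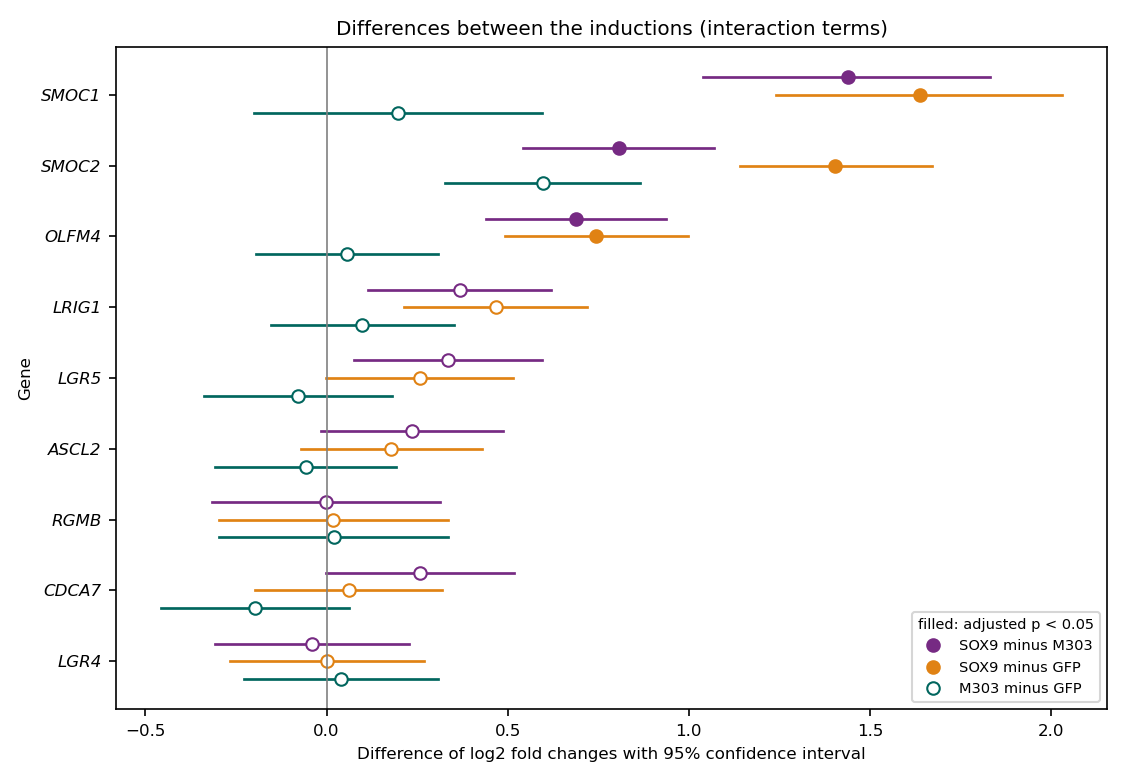
Difference between the log2 fold changes of 2 inductions (horizontal axis) with its 95% confidence interval (lines) for the 9 genes tested (vertical axis), with filled points where the adjusted p was under 0.05. SMOC1, SMOC2 and OLFM4 have filled points for SOX9 minus M303 (1.44, 0.81 and 0.69) and for SOX9 minus GFP (1.64, 1.40 and 0.74), and no point of M303 minus GFP is filled.

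Before induction OLFM4 was higher in the M303 line than in the GFP line. The uninduced M303 line had 59.6 and 58.6 CPM of OLFM4, against 38.2 and 36.8 CPM in the uninduced GFP line, a log2 difference of 0.66 (SE 0.0857, 95% CI 0.479 to 0.836, edgeR adjusted p = 0.00412). OLFM4 was the only gene of 18219 called in that comparison, which makes 1 of 9 crypt base genes beside 0.00549% of all genes tested. The call was lost without replicate 2 of the uninduced GFP line and without replicate 1 or 2 of the uninduced M303 line. Each of these fits left 1 library in a group and so had less power. The difference itself stayed between 0.63 and 0.68 under all 19 alternatives. The uninduced SOX9 line, with 42.9 and 41.7 CPM, differed from the GFP line by 0.17 (95% CI -0.00547 to 0.354, adjusted p = 0.92) and from the M303 line by -0.48 (95% CI -0.661 to -0.306, adjusted p = 0.269). Between the SOX9 and M303 lines OLFM4 ranked 1 of all genes by p and was called by DESeq2 (adjusted p = 0.00175), but edgeR called no gene.

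For the other 8 genes tested, the uninduced lines differed by -0.23 (SMOC1, M303 over GFP) to 0.14 (CDCA7, M303 over GFP) on the log2 scale and no difference was called. In the SOX9 line against the GFP line, edgeR and DESeq2 called 0 of the 9 genes and 0 had an unadjusted p under 0.05, where edgeR called 0% of all genes. Against the M303 line edgeR again called 0 of the 9, where 0% of all genes were called. DESeq2 called 1 of the 9, OLFM4, which was its only call among all genes. OLFM4 alone of the 9 had an unadjusted p under 0.05, a level met by 508 of the 18219 genes tested.

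**Figure D4:**
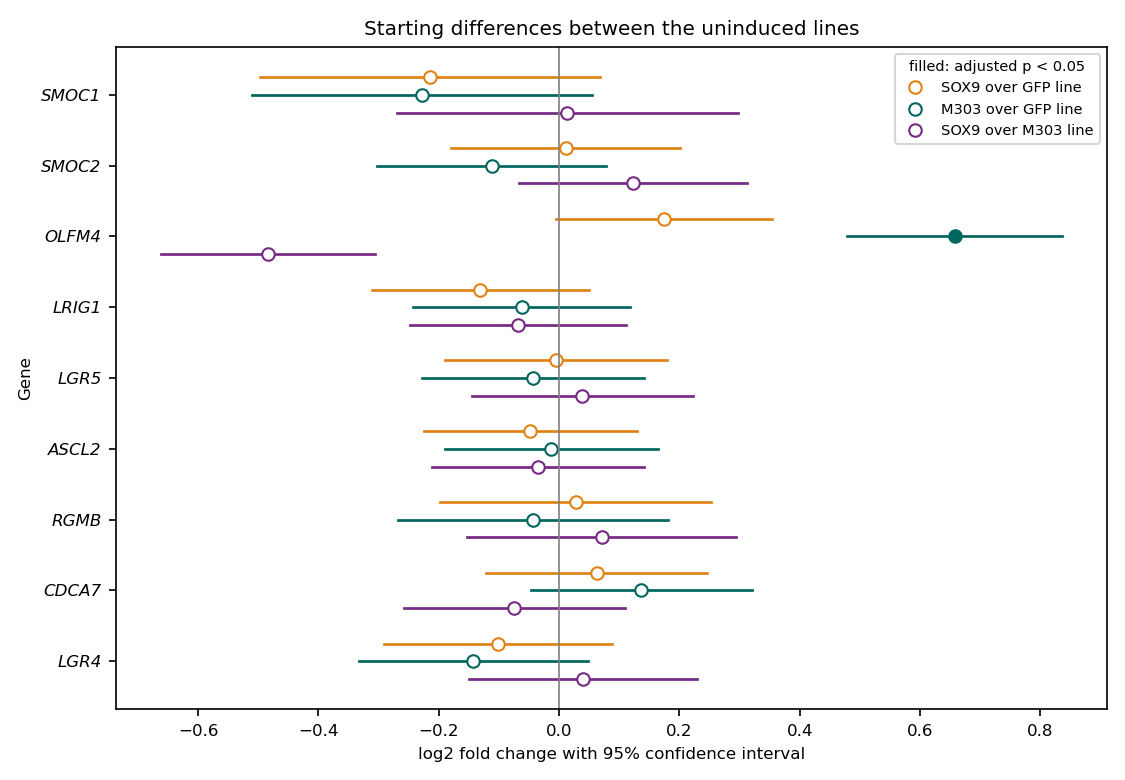
Log2 difference between uninduced lines (horizontal axis) with its 95% confidence interval (lines) for the 9 genes tested (vertical axis), for SOX9 over GFP, M303 over GFP and SOX9 over M303, with a filled point where the adjusted p was under 0.05. Only OLFM4 in M303 over GFP, at 0.66, is filled.

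Because of this starting difference the induced lines were also set side by side, a comparison added after the values were seen. SMOC1, SMOC2 and LGR5 were higher in induced SOX9 than in induced M303, 3 of the 9 genes, where 1.15% of all genes tested were called higher. SMOC1 differed by 1.45 (edgeR adjusted p = 1e-06) and SMOC2 by 0.93 (adjusted p = 1.87e-06) on the log2 scale. LGR5 differed by 0.37 (95% CI 0.191 to 0.558, adjusted p = 0.0284), and this call was lost without replicate 2 of induced M303 (adjusted p = 0.474) and without replicate 1 (0.279) or replicate 2 (0.24) of induced SOX9. OLFM4, the gene raised by SOX9 over its own baseline, stood at 72.1 and 68.0 CPM in induced SOX9 and 60.1 and 61.5 CPM in induced M303, a difference of 0.21 (95% CI 0.0308 to 0.38, adjusted p = 0.343). Between the induced lines the OLFM4 level did not pass the test, whereas its log2 response over each line's own baseline differed by 0.69.

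Against induced GFP, also added after the values were seen, SOX9 gave higher levels of SMOC1 (1.42, edgeR adjusted p = 5.93e-07), SMOC2 (1.42, adjusted p = 5.71e-09), OLFM4 (0.92, adjusted p = 5.93e-07) and LRIG1 (0.34, adjusted p = 0.0366). These were 4 of the 9 genes, and 0 were lower, where 1.49% of all genes tested were called higher and 1.05% lower. The LRIG1 call was lost under 10 of the 19 alternatives, with an adjusted p of up to 0.518 without replicate 2 of induced SOX9.

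Levels of different genes were compared per length, as CPM per 1000 bases of exon (RPKM). In the 6 uninduced libraries ASCL2 was highest, with a median of 139.7 RPKM, and CDCA7 followed at 30.9 RPKM. LGR4 at 18.5 RPKM, OLFM4 at 14.9 RPKM and LGR5 at 13.5 RPKM came next, and the ranges of these neighbours overlapped. The place of OLFM4 in this order depended on the line. In the uninduced M303 line it had 20.95 and 20.6 RPKM, above LGR4 at 18.4 and 17.8 RPKM, and in the uninduced GFP line its mean of 13.2 RPKM lay below the 13.6 RPKM of LGR5, with overlapping libraries. SMOC2 stood at 10.8 RPKM, below LGR5 with no overlap. LRIG1 at 7.33 RPKM and RGMB at 6.98 RPKM overlapped, SMOC1 stood at 3.64 RPKM and MSI1 at 0.018 RPKM. In the SOX9 line with doxycycline SMOC2 stood at 27.2 and 28.5 RPKM, which placed it in rank 3, ahead of OLFM4 at 23.9 and 25.4 RPKM, LGR4 and LGR5. SMOC1 took rank 8 there with 9.93 and 10.7 RPKM, ahead of RGMB at 7.72 and 8.21 RPKM.

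**Figure D5:**
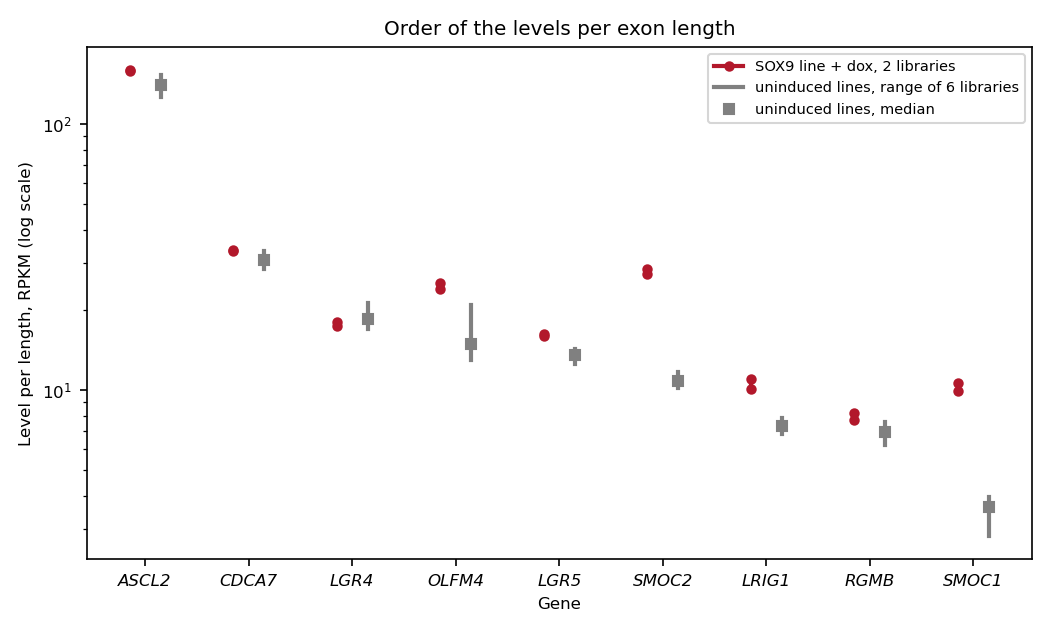
Level per exon length in RPKM (vertical axis, log scale) of 9 genes (horizontal axis, in the order of the uninduced medians, MSI1 left out), as points for the 2 libraries of the SOX9 line with doxycycline and as squares and bars for the median and range of the 6 uninduced libraries. SMOC2 stands at 27.2 and 28.5 RPKM with SOX9, against a median of 10.8 RPKM in the uninduced lines, and ASCL2 is highest in both.

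Across the 12 libraries the log2 CPM of SMOC1 and SMOC2 correlated at r = 0.925, those of SMOC1 and LRIG1 at 0.899 and those of SMOC2 and LRIG1 at 0.871. LGR5 correlated with CDCA7 at 0.772, and OLFM4 with SMOC2 at 0.70. LGR4 ran the other way against 6 of the other 8 genes tested, from -0.571 with OLFM4 and -0.529 with ASCL2 to -0.115 with RGMB. These are descriptions over libraries that fall into the same 6 groups, the induced SOX9 pair among them. Among 11764 genes with a symbol and a mean of at least 1 log2 CPM, the genes most like SMOC1 over the 12 libraries were SNTB1 (r = 0.984) and NEDD9 (0.98), and those most like SMOC2 were PRSS23 (0.982) and RNF128 (0.978). CEMIP (0.971) and JAG1 (0.945) were nearest to LRIG1, TMEM123 (0.967) and ENPP4 (0.945) to LGR5, and ZNF385A (0.913) and GNAS (0.906) to OLFM4.

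Other genes of the same biology were counted from 5 lists. Of 20 other intestinal stem cell genes, 18 were tested and SOX9 raised 4 and lowered 1, with a median log2 fold change of 0.13. Over all genes tested, edgeR called 1.81% higher and 1.16% lower with SOX9, and the median was 0.0059. These are the background for the edgeR calls and the medians of all 5 lists. With SOX9 an unadjusted p under 0.05 was met by 2520 of the 18219 genes tested, and DESeq2 called 772 genes. NKD1, a WNT-induced inhibitor of Dishevelled, had 188 and 218 CPM in the SOX9 line with doxycycline, against 87.3 and 96.8 CPM without, with 1.14 as log2 fold change (95% CI 0.938 to 1.34, edgeR adjusted p = 2.15e-07). Its response was also larger than to M303 (difference 0.84, adjusted p = 0.00253) and to GFP (1.08, adjusted p = 0.000113). TNFRSF19, a receptor found on mouse Lgr5 cells, had 4.50 and 5.24 CPM with SOX9, against 1.69 and 1.63 CPM without (log2 fold change 1.55, adjusted p = 0.00478). The cell cycle kinase gene CDK6 rose by 0.51 on the log2 scale (adjusted p = 0.00194) and CD44, a hyaluronan receptor and WNT target, by 0.25 (adjusted p = 0.0454), while the receptor phosphatase gene PTPRO fell by 0.54 (adjusted p = 0.0165). All but NKD1 were lost when single libraries were left out: CDK6 without replicate 2 of induced SOX9 (adjusted p = 0.121), TNFRSF19 without replicate 2 of induced SOX9 (0.0713) or of uninduced SOX9 (0.0503), PTPRO without replicate 1 of induced (0.251) or of uninduced SOX9 (0.179), and CD44 without any 1 of the 4 SOX9 libraries (0.146 to 0.447) or of the 4 M303 libraries (0.0751 to 0.0971). CD44 was also lost with RLE scaling (edgeR adjusted p = 0.0543), without the low-count filter (0.0559), with the replicate block (0.0899) and with the compared groups alone (0.0638). In all, CD44 lost its call under 12 of the 19 alternatives. TNFRSF19, CD44 and PTPRO were not called in SOX9 minus M303 or in SOX9 minus GFP induction (edgeR adjusted p 0.192 to 0.759). CDK6 was not called in SOX9 minus M303 induction (difference 0.43, edgeR adjusted p = 0.273). In SOX9 minus GFP induction the log2 difference of CDK6 was 0.61 (edgeR adjusted p = 0.0193). It missed the threshold when replicate 2 of uninduced GFP (adjusted p = 0.123), replicate 2 of induced GFP (0.0617), replicate 1 of uninduced SOX9 (0.0657) or replicate 2 of induced SOX9 (0.262) was left out. AXIN2, a WNT target used as a readout of the pathway, had a log2 fold change of -0.05 (95% CI -0.203 to 0.0985) and was picked for mention after its values were seen.

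In the R-spondin pathway 7 of 11 genes were tested, and 0 were called by edgeR or DESeq2 and 0 had an unadjusted p under 0.05 with SOX9, with a median of 0.105. The ligand genes RSPO1, RSPO2 and RSPO3 had 0 counts in all 12 libraries, and the ligases RNF43 and ZNRF3 had log2 fold changes of 0.16 (95% CI -0.0373 to 0.362) and 0.05 (95% CI -0.142 to 0.233). Of 13 paralogs and partners, 10 were tested and 1 was called higher, with a median of 0.14. That was HELLS, the partner of CDCA7, with 80.0 and 82.6 CPM with SOX9, against 66.8 and 62.0 CPM without (0.34, edgeR adjusted p = 0.0452). Its response did not pass the test against that of M303 (difference 0.25, edgeR adjusted p = 0.759) or of GFP (0.34, adjusted p = 0.376). The HELLS call with SOX9 was lost under 11 of the 19 alternatives. These were leaving out any 1 of the 4 SOX9 libraries or of the 4 M303 libraries, RLE scaling (edgeR adjusted p = 0.0524), the fit that is not robust (0.0621) and the replicate block (0.074). Of 10 genes for ERBB receptors, on which LRIG1 acts, and for their ligands, 9 were tested. Of these, 0 were called by edgeR or DESeq2, 1 had an unadjusted p under 0.05, and the median was -0.00089. Of 15 BMP pathway genes 14 were tested and edgeR called 0, DESeq2 called 2 (ID2 and BMP4, the second named after its values were seen), 5 had an unadjusted p under 0.05, and the median was 0.16. ID2, a target of BMP signals, had a log2 fold change of 0.39 with SOX9 (edgeR adjusted p = 0.0513). It passed the test under 7 of 19 alternatives, 6 of them in edgeR, and its adjusted p ran from 0.00115 without the low-count filter to 0.453 without replicate 2 of uninduced SOX9. M303 and GFP induction gave 0 calls by edgeR or DESeq2 in all 5 lists, with up to 2 genes of a list at an unadjusted p under 0.05. Over all genes tested, 662 met that level with M303 and 580 with GFP.

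The list genes were also compared between the induced lines, again after the values were seen. In induced SOX9 over induced GFP it called NKD1, CDK6 and TNFRSF19 higher among the 18 other stem cell genes, 2 of the 14 BMP pathway genes higher and 1 of the 7 R-spondin pathway genes lower, beside 1.49% of all genes tested called higher and 1.05% lower. DESeq2 called the same genes, and CD44 higher and PTPRO lower as well, among 695 calls over all genes. The BMP pathway genes were ID1 and ID2, both targets of BMP signals. ID2 had 142 and 138 CPM in induced SOX9, against 86.8 and 113.5 CPM in induced GFP (log2 difference 0.48, edgeR adjusted p = 0.0133), and ID1 had 231.5 and 239 CPM, against 167 and 204 CPM (0.34, adjusted p = 0.037). The R-spondin pathway gene was FZD5, a WNT receptor, with 78.7 and 81.9 CPM in induced SOX9, against 118 and 91.4 CPM in induced GFP (-0.38, adjusted p = 0.0496). Both libraries with SOX9 stood apart from both with GFP for each of these 3 genes. They were named because they were called, so that separation adds no support to the calls. All 3 calls were lost without replicate 1 of induced GFP, where the log2 difference was 0.30 for ID2 (adjusted p = 0.244), 0.20 for ID1 (0.488) and -0.19 for FZD5 (0.608), and also without either library of induced SOX9 (0.0869 to 0.333). In all, ID2 lost its call under 3, ID1 under 8 and FZD5 under 12 of the 19 alternatives, TNFRSF19 under 10, CDK6 under 2 and NKD1 under 0. In induced SOX9 over induced M303, edgeR called NKD1 and CDK6 alone in the 5 lists, both higher, DESeq2 also called PTPRO lower, and the CDK6 call was lost under 4 alternatives.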

How the data were processed

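Gene-level RNA-seq counts of 12 LS180 libraries in 6 groups of 2 were used. STAR 2.7.0a and hg38 are named for the alignment in the submitters' processing notes. The submitters' extraction notes give paired reads of 150 bases. Per the file headers, the authors counted reads with featureCounts 2.0.1 and Ensembl release 101, and the deposited unit is the raw count per gene. The recorded command has no option for pairs or strand, so each mate was counted and opposite strands were pooled, and a read over exons of 2 genes was given to neither. All 12 columns were used and 0 entries named no gene. The gene name table gave symbols to 42020 of 60671 genes (69.3%).

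Counts were tested with edgeR 4.0.16 (limma 3.58.1, R 4.3.3), by the quasi-likelihood F-test in its robust form with 1 mean per group, all 12 libraries in 1 model and 6 residual degrees of freedom. TMM factors ran from 0.981 to 1.02, filterByExpr (default count minimum 10) kept 18219 genes, and the biological coefficient of variation was 10.6%. Adjusted p-values are Benjamini-Hochberg over all genes tested, called under 0.05, for 11 comparisons, of which 2 were added after the values were seen. Standard errors and intervals were computed from the F statistic. CPM and RPKM (CPM per 1000 exon bases) rest on library totals multiplied by these factors. Intervals and floors (3 counts) cover counting error only where no replicate enters them. The code was tested on simulated data. Duplicates differed beyond counting noise (chi-square per degree of freedom 6.89 to 20.6), whether or not they are independent, and the labels give no batch.

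The members and the gene lists were chosen with earlier results of these data known. The text names all 10 members, SOX9, called genes of each list (at most 6), and for LGR5 and the members called with SOX9 the 2 genes with the highest Pearson r. Alternatives were RLE scaling, no low-count filter, DESeq2 1.42.0, halved counts, a fit that is not robust, a replicate block, a fit of the groups compared alone, and leaving out each library.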

Additional observations from a re-analysis of the deposited data

Results flagged for a closer look

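The response of 3 crypt base genes differed between lines by a test of the difference itself. In SOX9 minus M303 induction the log2 difference was 1.44 for SMOC1, 0.81 for SMOC2 and 0.69 for OLFM4. In SOX9 minus GFP induction it was 1.64 for SMOC1, 1.40 for SMOC2 and 0.74 for OLFM4. The same SOX9 libraries stand in both comparisons, and OLFM4 started at 59.6 and 58.6 CPM in the M303 line, against 42.9 and 41.7 CPM in the SOX9 line and 38.2 and 36.8 CPM in the GFP line. No crypt base gene was called in M303 minus GFP induction, where the log2 difference of SMOC2 was 0.60 (95% CI 0.328 to 0.865, edgeR adjusted p = 0.992).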

How the results depend on the processing

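Over 19 alternatives, 1881 values were recomputed for 99 results on single crypt base genes. Of these, 1856 kept their side of the threshold, 18 lost a call, 7 gained one and 0 called values changed sign; 83 uncalled values did. SMOC1, SMOC2, OLFM4 and LRIG1 were called with SOX9 under all 19. The causes were not tested.

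Counts of crypt base genes called moved as follows. With M303 induction the count of 0 was 1 without the low-count filter and with DESeq2 (SMOC2 each time), and 0 to 1 when single libraries were left out. For the uninduced M303 over GFP lines the count of 1 (OLFM4) was 0 to 1 when single libraries were left out. For the uninduced SOX9 over M303 lines the count of 0 was 1 with DESeq2 (OLFM4). For SOX9 minus GFP the count of 3 was 4 with DESeq2 (LRIG1 added). For induced SOX9 over induced M303 the count of 3 was 2 with the replicate block. It was 4 in a fit of the compared groups alone, which called LRIG1 (edgeR adjusted p = 0.0375). For induced SOX9 over induced GFP the count of 4 was 3 under both these settings. Leaving out single libraries also lowered the counts of both induced comparisons and of SOX9 minus M303.

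Counts over all genes moved more. Leaving out single libraries gave 231 to 675 genes for SOX9 induction (541), 1 to 2 for M303 induction (1), 0 to 9 for GFP induction (0), 57 to 107 for SOX9 minus M303 (89), 95 to 229 for SOX9 minus GFP (163) and 1 to 12 for M303 minus GFP (1). It gave 0 to 39 for the uninduced SOX9 over GFP lines (0), 0 to 56 for uninduced M303 over GFP (1), 138 to 373 for induced SOX9 over induced M303 (313) and 203 to 566 for induced SOX9 over induced GFP (464). Without the low-count filter M303 induction had 9 calls, GFP induction 4, SOX9 minus M303 147, SOX9 minus GFP 270, M303 minus GFP 11, uninduced SOX9 over GFP 17 and uninduced M303 over GFP 22. SOX9 induction had 750 calls there, induced SOX9 over induced M303 469 and induced SOX9 over induced GFP 659. With DESeq2 M303 induction had 3, GFP induction 2, SOX9 minus M303 139, uninduced SOX9 over GFP 2 and uninduced SOX9 over M303 1. DESeq2 also gave 772 for SOX9 induction, 227 for SOX9 minus GFP, 441 for induced SOX9 over induced M303 and 695 for induced SOX9 over induced GFP. A fit of the compared groups alone gave 3 for M303 induction, 1 for uninduced SOX9 over GFP and 612 for induced SOX9 over induced M303. Other counts over all genes also changed under some settings and are not all listed.

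Deviations of same-numbered libraries from their group means correlated at r -0.352 to 0.282 over 15 pairs of groups. With 2 libraries a group this cannot show whether the numbers pair the samples, and the labels do not say. With the replicate block the calls of LGR5 in induced SOX9 over induced M303 (adjusted p = 0.0524) and of LRIG1 in induced SOX9 over induced GFP (adjusted p = 0.0646) were lost, as were CD44 (0.0899) and HELLS (0.074) with SOX9 and FZD5 (0.0833), ID1 (0.0681) and TNFRSF19 (0.0718) in induced SOX9 over induced GFP, and no other crypt base gene changed its call. With 2 libraries a group and a biological coefficient of variation of 10.6%, a p that misses the threshold does not show that a gene was unaffected, and MSI1 was too low to measure at this depth.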
